A study of Mus musculus with 426 samples.

Results

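Atp6v0d2, Oscar, Acp5, Ctsk and Mmp9, 5 genes that osteoclasts are known for, were followed through single cells of an orthotopic mouse pancreatic tumour, with attention to the cells sorted as GFP+ from the primary tumour. The 5 genes are 5 of 24424 gene rows used, and all 5 had a row. They were chosen for high values in a few GFP+ primary cells, so their levels there are a description with no test. A cell was taken to carry the pair Atp6v0d2 and Oscar when it had at least 10 CPM (counts scaled to 1000000 per cell) of each, and 3 of 76 GFP+ primary cells did. In 2 of these 3, both from mouse 3, all 5 genes were high, their macrophage-type RNA was partial, and the copy-number pattern of their DNA followed that of the tumour cells at less than its usual height.

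RNA and DNA of the same cell were amplified in 1 tube and read together, with exonic reads taken as RNA and other reads as DNA. The tumours came from 50000 KPC1199-EGFP cells, a single pancreatic cancer line with green fluorescent protein (GFP), placed in the pancreas of 3 male C57BL/6 mice and left for 6 to 8 weeks. The labelled groups of single cells were GFP+, EpCAM+ (epithelial surface protein), GFP+EpCAM+ and CD45+ (leukocyte surface protein) cells of the primary tumour in all 3 mice, and GFP+ cells of the peritoneum in all 3 mice and of kidney, liver and spleen in mice 2 and 3. Every mouse carried the injected cells, and no tissue of a mouse without a tumour was among the groups. The GFP+ sort used no marker of leukocytes, so the label alone does not say whether a GFP+ cell is a tumour cell. RNA was described in 368 of 418 cells that had at least 500 detected genes and 10000 counts: 76 GFP+, 25 EpCAM+, 31 GFP+EpCAM+ and 56 CD45+ primary cells, 85 of the peritoneum, 44 of the kidney, 16 of the liver and 35 of the spleen. GFP+ primary cells had 12577 to 17845616 RNA counts (median 1614521).

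Osteoclasts are large cells with several nuclei that form by fusion of precursors of the monocyte and macrophage lineage and dissolve bone. They pump acid onto the bone surface through a vacuolar proton pump (V-ATPase) and release enzymes that break down the exposed collagen. Atp6v0d2 is a d subunit of the V-ATPase membrane sector and is also needed for fusion of osteoclast precursors. Oscar is an immunoglobulin-like receptor that binds collagen and signals through the adaptor Fcer1g. Acp5 encodes tartrate-resistant acid phosphatase, the classical osteoclast stain, and Ctsk encodes cathepsin K, the main collagen-cutting protease of osteoclasts. Mmp9, a gelatinase, is made by osteoclasts and also by neutrophils, macrophages and some tumour cells, and Acp5 is also made by activated macrophages.

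Promoter sequences show which letters bound by osteoclast transcription factors stand near the starts of these genes. RefSeq promoters (build GRCm38.p6) matched 3 of the 5 genes. The 250 bases before a start are printed for Oscar, the most restricted of the 5 genes here, for Ctsk, the highest of the 5 in GFP+ cells 25 and 26 of mouse 3, and for the only 1 of 3 Acp5 starts with an E-box match. Capitals mark the AP-1 motif TGANTCA, the PU.1 core GAGGAA, the NFAT core GGAAA and the MITF-type E-box TCANGTGA on either strand, and GAGGAA followed by A holds both cores.
Oscar, chr7:3616158-3616407, minus strand: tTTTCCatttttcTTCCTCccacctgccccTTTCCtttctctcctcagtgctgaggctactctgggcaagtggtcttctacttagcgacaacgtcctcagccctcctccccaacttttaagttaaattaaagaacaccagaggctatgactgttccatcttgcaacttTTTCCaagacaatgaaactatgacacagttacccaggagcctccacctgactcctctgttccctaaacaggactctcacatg
Ctsk, chr3:95498960-95499209, plus strand: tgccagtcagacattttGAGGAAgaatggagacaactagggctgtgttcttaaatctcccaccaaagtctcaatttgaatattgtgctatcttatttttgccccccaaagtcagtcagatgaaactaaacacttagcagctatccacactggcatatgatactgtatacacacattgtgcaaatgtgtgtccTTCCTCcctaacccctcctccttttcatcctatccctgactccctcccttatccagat
Acp5, chr9:22130599-22130848, minus strand: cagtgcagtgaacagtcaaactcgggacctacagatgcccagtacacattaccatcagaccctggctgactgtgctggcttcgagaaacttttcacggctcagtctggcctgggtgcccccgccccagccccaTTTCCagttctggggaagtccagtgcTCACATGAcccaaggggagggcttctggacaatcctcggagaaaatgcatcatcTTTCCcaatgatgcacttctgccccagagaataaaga
The Oscar stretch held 1 PU.1 core and 3 NFAT cores, the Ctsk stretch 2 PU.1 cores, and the Acp5 stretch 2 NFAT cores and 1 E-box. None of these 3 stretches held TGANTCA. Of all 32851 promoters of the same length, 23.3% held a PU.1 core, 55.6% an NFAT core, 3.45% the E-box and 6.75% the AP-1 motif. These matches describe letters and were not tested as binding sites.

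**Figure D1:**
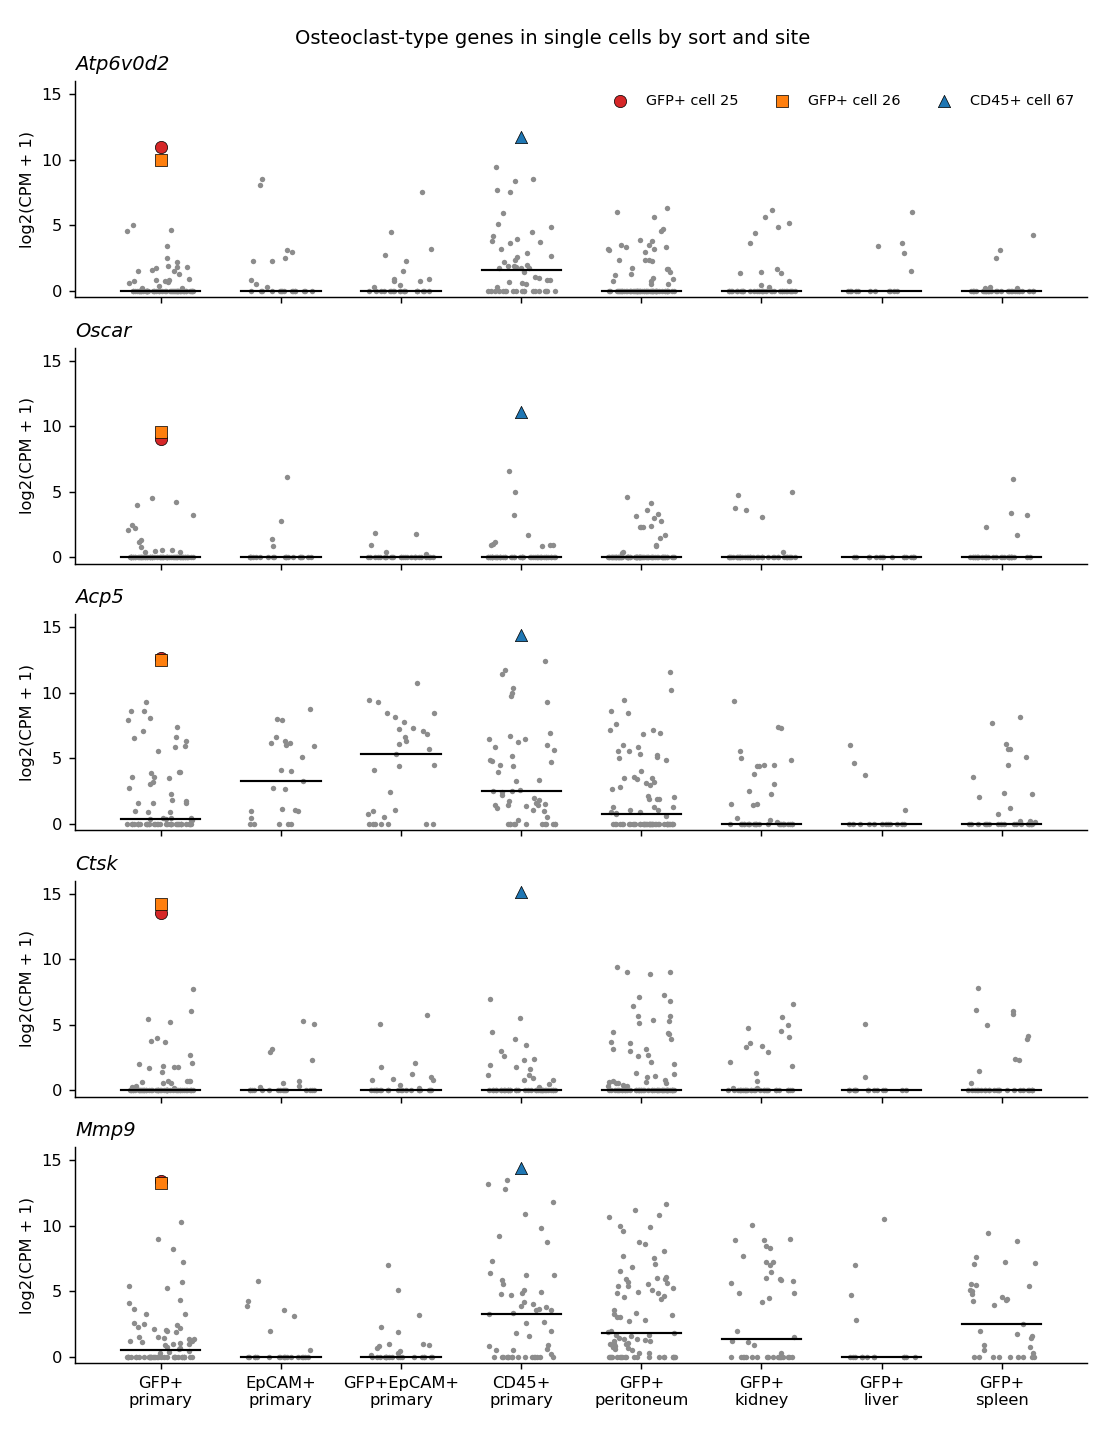
Each point is 1 cell, the vertical axes give log2(CPM + 1) of the named gene, and the horizontal axis gives the labelled sort and site, with a black line at each group's median. GFP+ cells 25 and 26 and CD45+ cell 67, all from the primary tumour of mouse 3, lie above every other cell for Atp6v0d2, Oscar, Acp5 and Ctsk.

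Atp6v0d2, the pump subunit, had 2037 CPM in GFP+ cell 25 of mouse 3 and 1031 CPM in GFP+ cell 26 of the same mouse. The next GFP+ primary cell, cell 1 of mouse 2, had 30.6 CPM, and the median of the 76 cells was 0. Any count of the gene was seen in 26 of 76 GFP+ cells, and 5 cells reached 10 CPM. Outside the GFP+ sort the highest value was 3446 CPM in CD45+ cell 67 of mouse 3, followed by 685.5 CPM in CD45+ cell 16 of mouse 2. Atp6v0d2 was seen in more CD45+ cells than Oscar was: 15 of 56 CD45+ cells had at least 10 CPM of Atp6v0d2 and 3 of 56 had that much Oscar.

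Oscar, the collagen receptor, had 759.3 CPM in GFP+ cell 26 and 530.0 CPM in GFP+ cell 25, and the next GFP+ cell had 22.15 CPM. In CD45+ cell 67 it stood at 2139 CPM, and the next of all 368 cells had 92.6 CPM, from a single count. No cell besides these 3 reached 100 CPM of Oscar. In the liver, 0 of 16 GFP+ cells had a count of it, which allows a share of up to 18.75% when a count of 0 is read as at most 3 cells.

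Acp5, the phosphatase, had 6601 CPM in GFP+ cell 25 and 5862 CPM in GFP+ cell 26, against 629.3 CPM in the next GFP+ primary cell. Lower levels were widespread, with at least 10 CPM in 21 of 76 GFP+, 12 of 25 EpCAM+, 19 of 31 GFP+EpCAM+ and 23 of 56 CD45+ cells. The median was 0.258 CPM in GFP+ cells, 8.75 CPM in EpCAM+ cells, 39.5 CPM in GFP+EpCAM+ cells and 4.598 CPM in CD45+ cells. In CD45+ cell 67 it reached 21498 CPM, and the highest of the remaining cells, CD45+ cell 79 of mouse 3, had 5625 CPM.

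Ctsk, the collagenolytic cathepsin, had 19194 CPM in GFP+ cell 26 and 11884 CPM in GFP+ cell 25. The next GFP+ primary cell had 209.5 CPM. Its level was 36325 CPM in CD45+ cell 67, while the next of the 56 CD45+ cells had 124.1 CPM. The next highest values of all cells were in GFP+ peritoneal cells, at 671.6 CPM and below.

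Mmp9, the gelatinase, had 11015 CPM in GFP+ cell 25, 9680 CPM in GFP+ cell 26 and 1224 CPM in the next GFP+ primary cell. Like Acp5, it was also high in CD45+ cells other than cell 67 (22097 CPM): 6 of 56 CD45+ cells reached 1000 CPM of Mmp9, and 6 did so for Acp5. CD45+ cell 19 of mouse 2 had 11323 CPM and CD45+ cell 69 of mouse 3 had 9168 CPM. At least 10 CPM of Mmp9 was found in 12 of 76 GFP+ and 27 of 56 CD45+ primary cells.

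Counts of all kept cells of a sort were also summed per mouse. The GFP+ primary sums held 278.0 CPM of Atp6v0d2 in mouse 3, 0.656 CPM in mouse 2 and 0.968 CPM in mouse 1. For Oscar they held 111.0, 0.268 and 0.708 CPM in mice 3, 2 and 1. Mouse 3 was thus the high sum for these genes, with 70.6% of its Atp6v0d2 counts from cell 25 and 53.9% of its Oscar counts from cell 26. Over the 3 mice, the GFP+ sums averaged 93.2 ± 160 CPM of Atp6v0d2, 37.3 ± 63.8 CPM of Oscar, 412.5 ± 614 CPM of Acp5, 896.2 ± 1530 CPM of Ctsk and 717.0 ± 976 CPM of Mmp9 (SD, n = 3). The CD45+ sums averaged 109.0 ± 92.04, 36.8 ± 63.4, 711.2 ± 473, 623.3 ± 1078 and 1539 ± 1334 CPM of the same genes, also with the SD near or above the mean for Atp6v0d2, Oscar, Ctsk and Mmp9. Peritoneal sums averaged less than both sorts for each gene, at 1.21 ± 1.43 CPM of Atp6v0d2, 0.532 ± 0.426 CPM of Oscar, 87.4 ± 134 CPM of Acp5, 31.5 ± 32.6 CPM of Ctsk and 153.1 ± 56.99 CPM of Mmp9 (SD, n = 3). In kidney, liver and spleen of mice 2 and 3 the highest sum was 3.73 CPM of Atp6v0d2, 2.21 CPM of Oscar, 49.04 CPM of Acp5, 20.5 CPM of Ctsk and 375.9 CPM of Mmp9. The 3.73 CPM of Atp6v0d2 came from 2 counts in the liver sum of mouse 3, which held 535652 RNA counts. GFP+ and CD45+ cells stood next to each other at the top of the order for all 5 genes, and the ranges of their sums overlapped for each. Within each mouse the GFP+ sum was below the CD45+ sum for Acp5 and Mmp9 in 3 of 3 mice, which was not tested because the genes were chosen on GFP+ values.

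The 3 GFP+ primary cells that carried the pair made up 3.95% of 76 (95% exact binomial interval 0.822% to 11.1%, counting error only). They were 2 of 27 cells of mouse 3 and 1 of 18 of mouse 2, while 0 of 31 in mouse 1 allows a share of up to 9.68% by the same limit of 3 cells (11.2% by the exact interval). At a bar of 1 CPM of each gene the count was 5, at 100 CPM it was 2, and with any count of each it was 7. In the other groups the pair was carried by 3 of 56 CD45+, 1 of 25 EpCAM+, 0 of 31 GFP+EpCAM+, 1 of 85 peritoneal, 1 of 44 kidney, 0 of 16 liver and 0 of 35 spleen cells.

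The carrying cells were of different kinds. GFP+ cells 25 and 26 and CD45+ cell 67 had 1998 to 5052 counts of Oscar each, and their libraries held 0.133, 0.114 and 0.359 DNA reads per RNA count. The other 6 carrying cells had 1 to 17 counts of Oscar and no count of Ctsk. Their libraries held 1.59 to 18.9 DNA reads per RNA count. GFP+ cell 1 of mouse 2, the remaining carrying GFP+ cell, was one of these 6. It had 30.6 CPM of Atp6v0d2 (29 counts), 17.9 CPM of Oscar (17 counts), 14.8 CPM of Acp5, 0 CPM of Ctsk and 51.7 CPM of Mmp9 in 947552 RNA counts, with 2.56 DNA reads per RNA count. Just outside the bar, 2 GFP+ primary cells had at least 1 CPM of both genes: cell 31 of mouse 1 had 2.50 CPM of Atp6v0d2 and 3.76 CPM of Oscar, and cell 18 of mouse 2 had 24.1 and 1.51 CPM. Peritoneal cell 42 of mouse 1 was closer to it, with 64.9 CPM of Atp6v0d2 and 8.65 CPM of Oscar. Since RNA and DNA are told apart only by exons, the part of genomic reads in these low values was not tested.

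The libraries of GFP+ cells 25 and 26 were among the deepest of the sort, with 8133999 and 6653897 RNA counts (ranks 5 and 6 of 76), 12759 and 11430 detected genes and 1085656 and 755297 DNA reads. Their DNA counts differed from each other far beyond sampling noise, with a chi-square of 29.2 per degree of freedom, so they are not 1 library entered again. The library of CD45+ cell 67 held 934227 RNA counts, 7028 detected genes and 335642 DNA reads. How many cells each of these sorted libraries holds was not tested, and no doublet caller was run.

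The DNA profile of a cell was its share of reads on each of the 19 autosomes over the median share in CD45+ cells, on a log2 scale. The tumour profile was the median of 27 GFP+EpCAM+ cells, and only cells with at least 50000 DNA reads were used. In GFP+ cell 25 the profile correlated with the tumour profile at Pearson r = 0.745, and in GFP+ cell 26 at r = 0.686. CD45+ cell 67 had r = -0.06. These correlations run over 19 autosomes that share 1 library each and are given as descriptions. Median r was 0.786 in 63 GFP+ primary cells, 0.836 in GFP+EpCAM+ cells, which made the tumour profile, and -0.01 in CD45+ cells, which made the baseline.

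The tumour profile was beyond 0.3 on the log2 scale on 8 autosomes. On 8 of these 8, GFP+ cells 25 and 26 had the sign of the tumour and lay closer to 0, and CD45+ cell 67 had that sign on 5. Over all 19 autosomes the sign was shared on 16 by cell 25, on 15 by cell 26 and on 9 by CD45+ cell 67. On chromosome 4 the log2 share was -0.19 in cell 25 and -0.32 in cell 26, against -0.37 in the median of the other GFP+ primary cells of mouse 3 and -0.04 in CD45+ cell 67. On chromosome 14 it was -0.36 and -0.28 in cells 25 and 26, against -0.42 in the other GFP+ cells of mouse 3 and -0.08 in CD45+ cell 67. On chromosome 12 the same values were -0.13 and -0.24, against -0.53 and 0.13. On these 3 chromosomes both GFP+ cells lay below 0 and nearer to 0 than the median of the other GFP+ cells of their mouse. On chromosomes 4 and 14 they were within the 10th to 90th percentile of those cells (up to -0.12 and -0.21). The 10th percentile of CD45+ cells was -0.20, -0.20 and -0.23 on chromosomes 4, 12 and 14. Cell 26 lay below it on all 3, and cell 25 on chromosome 14 only. On chromosomes 3, 9, 10 and 13, cell 25 lay within the 10th to 90th percentile of CD45+ cells. Cell 26 did so on chromosomes 9 and 13. On chromosome 7 both lay below that range.

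**Figure D2:**
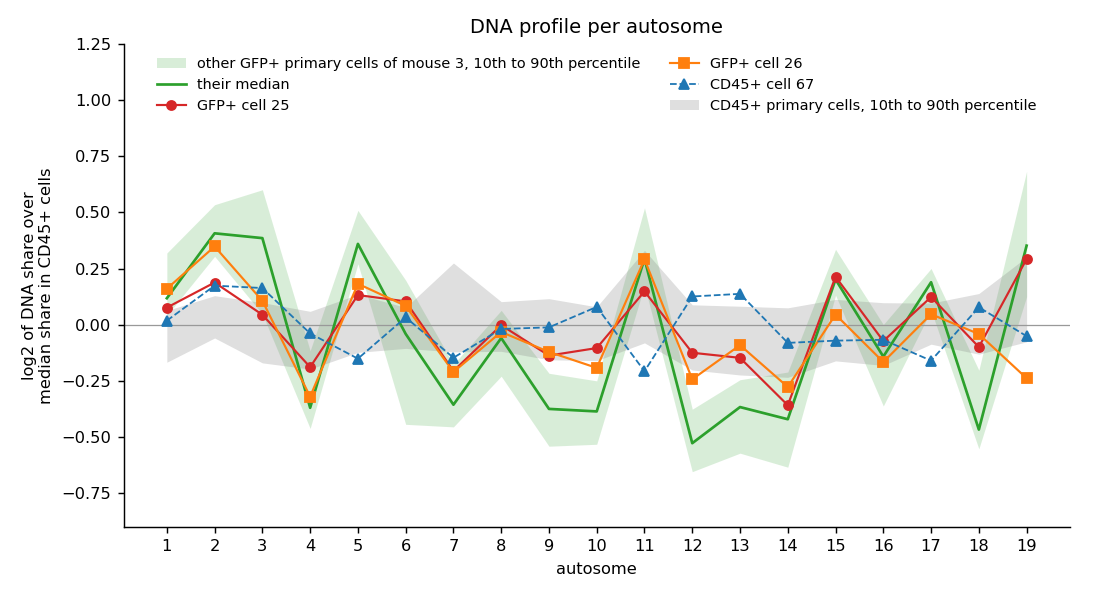
The horizontal axis gives the autosomes and the vertical axis the log2 of a cell's DNA share over the median share in CD45+ cells, for GFP+ cells 25 and 26 and CD45+ cell 67 of mouse 3. The green line and band are the median and the 10th to 90th percentile of the other GFP+ primary cells of mouse 3, and the grey band is that range in CD45+ primary cells. Cells 25 and 26 follow the green line's direction on most autosomes and lie nearer 0, at -0.19 and -0.32 on chromosome 4 against a median of -0.37.

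The height of a profile was measured as its slope on the tumour profile, so that 0 is no tumour pattern and 1 the tumour median. This amplitude was 0.409 in GFP+ cell 25 and 0.436 in GFP+ cell 26, ranks 3 and 4 from the lowest of 63 GFP+ primary cells. It was -0.01 in CD45+ cell 67 and 1.09 in GFP+ cell 1 of mouse 2. GFP+EpCAM+ cells ranged from 0.691 to 1.17. Of 53 CD45+ cells, 49 were below 0.25, 3 were at 0.25 to 0.75 and the highest had 0.904. Amplitudes of 0.25 to 0.75 were found in 8 of 63 GFP+ primary cells, cells 25 and 26 among them, and in 7 of 22 EpCAM+ cells. They were also found in 3 of 27 GFP+EpCAM+, 33 of 74 peritoneal, 7 of 40 kidney, 2 of 10 liver and 10 of 29 spleen cells. Against a profile made of the other 21 GFP+ primary cells of mouse 3, the amplitude was 0.446 in cell 25 and 0.442 in cell 26, while those 21 cells, which made that profile, ranged from 0.807 to 1.495. Cells 25 and 26 therefore lay between the GFP+EpCAM+ cells and most CD45+ cells by this measure. The 2 GFP+ primary cells with lower amplitudes, cell 40 of mouse 1 (-0.03) and cell 25 of mouse 2 (0.222), had 56.6 and 16.9 CPM of the 5 genes together, against 32067 CPM in GFP+ cell 25 and 36526 CPM in GFP+ cell 26 of mouse 3.

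The host mice are male, and reads in the 3 bins of the Y chromosome were counted as well. There were 18.1 and 33.5 Y reads per 100000 autosomal reads in GFP+ cells 25 and 26, against a median of 0.441 in the other 21 GFP+ primary cells of mouse 3 (0 to 18.7). CD45+ cells had a median of 31.98, and CD45+ cell 67 had 101.3. Cell 26 was above all 21 and cell 25 was within their range. GFP+ cells of mouse 1 had a median of 20.3. GFP+EpCAM+ cells, which made the tumour profile, had a median of 14.7 (0 to 59.97), and EpCAM+ cells one of 23.2. A high Y share was thus not limited to cells 25 and 26 or to leukocytes. The part of DNA from other cells in the lower amplitude and the Y reads was not tested.

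**Figure D3:**
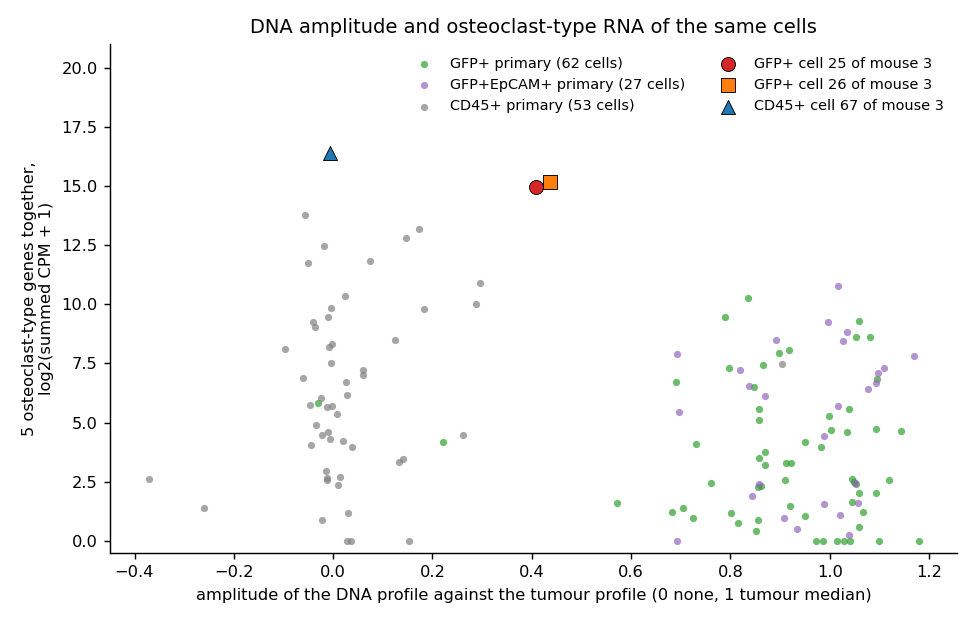
The horizontal axis gives the amplitude of a cell's DNA profile against the tumour profile and the vertical axis log2 of the summed CPM of the 5 genes plus 1, for primary cells that passed both the RNA and the DNA filter. GFP+ cells 25 and 26 (amplitudes 0.409 and 0.436) lie right of most CD45+ cells and left of most other GFP+ and GFP+EpCAM+ cells. CD45+ cell 67 lies at -0.01.

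Genes of osteoclast differentiation were partly present in the same cells. Of the 21 listed genes, 13 had at least 10 CPM in GFP+ cell 25, 14 in GFP+ cell 26 and 11 in CD45+ cell 67. Their sum was 3180 CPM in cell 25 and 6348 CPM in cell 26, against a median of 1724 CPM in the other 74 GFP+ cells, of which 24 were above cell 25 and 8 above cell 26. The order of this sum depends in part on Fos, a listed gene that 71 of the other 74 GFP+ cells had at 10 CPM or more. Fos had 1378 and 887.5 CPM in cells 25 and 26, against a median of 1416 CPM in the others. Ocstamp, a membrane protein of precursor fusion, had 126.9 CPM in cell 25 and 3135 CPM in cell 26, against at most 5.43 CPM in the other 74 GFP+ primary cells. Its partner Dcstamp had 83.2 and 31.1 CPM, against at most 28.1 CPM in the others, and CD45+ cell 67 had 1220 CPM of Ocstamp and 5097 CPM of Dcstamp. Spi1, which encodes PU.1, had 22.1 and 534.4 CPM in cells 25 and 26, against at most 2.85 CPM in the other GFP+ cells, and 6227 CPM in CD45+ cell 67. Nfatc1, the master factor of osteoclast formation, had 328.6 and 344.0 CPM, within the range of the other GFP+ cells (median 13.8, highest 4851 CPM).

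Receptors of the lineage were uneven. Csf1r, the M-CSF receptor, had 204.3 and 29.8 CPM in GFP+ cells 25 and 26, against at most 5.50 CPM in the other GFP+ cells. The adaptor Tyrobp had 219.8 and 217.5 CPM, against at most 46.5 CPM. Tnfrsf11a, the RANK receptor, was low at 1.48 and 2.41 CPM, and Calcr, Itgb3, Trem2 and Siglec15, which mature osteoclasts are known to make, had 0 to 1.48 CPM in both GFP+ cells and 0 to 2.14 CPM in CD45+ cell 67. The osteoclast-type name used here thus rests on the 5 genes and on the fusion genes Ocstamp and Dcstamp. Calcr, Itgb3, Trem2, Siglec15 and Tnfrsf11a were at or near 0.

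Genes of acid secretion were present in part, with 9 of 14 listed genes at 10 CPM or more in GFP+ cell 25, 8 in GFP+ cell 26 and 7 in CD45+ cell 67. Their sums were 2530 and 4928 CPM in cells 25 and 26, against a median of 689.8 CPM in the other 74 GFP+ cells, of which 7 were above cell 25 and 1 above cell 26. Ostm1, Plekhm1, Rab38 and Sh3pxd2a had 0.150 to 7.82 CPM in both. Car2, carbonic anhydrase 2, which supplies the protons, had 722.5 CPM in GFP+ cell 25 and 2399 CPM in GFP+ cell 26, against a median of 1.27 and a highest value of 3151 CPM in the other GFP+ cells. Tcirg1, the a3 subunit of the osteoclast pump, had 310.3 and 227.7 CPM, against a median of 0.454 CPM in the others (highest 349.4). CD45+ cell 67 had 1520 CPM of Car2 and 407.8 CPM of Tcirg1. The 15 V-ATPase subunits of all cells summed to 7415 and 9313 CPM in cells 25 and 26, against a median of 1943 CPM in the other GFP+ cells, of which 3 and 1 were higher. In CD45+ cell 67 they summed to 29595 CPM, above all 55 other CD45+ cells.

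**Figure D4:**
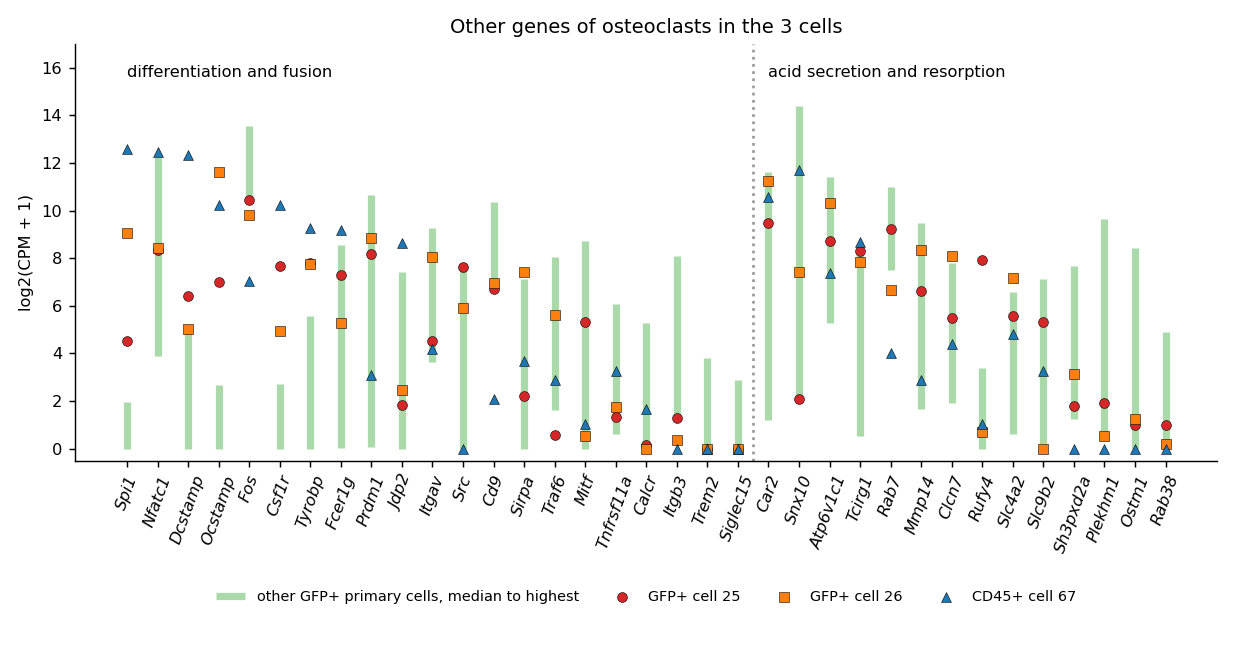
The vertical axis gives log2(CPM + 1) of listed genes of osteoclast differentiation and fusion (left of the dotted line) and of acid secretion and resorption (right) in GFP+ cells 25 and 26 and CD45+ cell 67. Green bars run from the median to the highest of the other 74 GFP+ primary cells. Ocstamp, Csf1r and Tyrobp of cells 25 and 26 lie above the bars, while Trem2 and Siglec15 are at 0 in all 3 cells.

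Other lysosomal and matrix enzymes were mixed. The 14 listed cathepsins and lysosomal hydrolases summed to 10427 and 8509 CPM in GFP+ cells 25 and 26. The median of the other 74 GFP+ cells was 3947 CPM, and 7 of them were above cell 25 and 10 above cell 26. Ctsa, a lysosomal carboxypeptidase, had 2885 and 4000 CPM in GFP+ cells 25 and 26, and Ctsz 1364 and 783.6 CPM, against medians of 182.2 and 171.2 CPM in the other GFP+ cells. Ctsb had 1158 and 1355 CPM, within the range of the other GFP+ cells (median 826.6, highest 5884 CPM). Acp2 had 0.738 and 0.150 CPM, against a median of 3.67 CPM. Ctss, a cathepsin of antigen-presenting cells, had 0.738 and 0 CPM. Of 14 other metalloproteinases and inhibitors, 9 were at 0 in cell 25 and 10 in cell 26. Timp2 had 202.4 and 738.4 CPM (median of the others 159.4 CPM) and was the highest of them in cell 26. Timp1 was the highest in cell 25, at 378.3 CPM. Of the ligands that induce osteoclasts, Tnfsf11 (RANKL) was at 0 in both cells, and Csf1 had 0 and 221.8 CPM.

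Leukocyte RNA in GFP+ cells 25 and 26 was narrow. The 12 pan-leukocyte genes summed to 2663 and 2391 CPM, against a median of 47.6 CPM (highest 3405) in the other 74 GFP+ cells and of 8724 CPM in CD45+ cells other than cell 67, which had 9656 CPM. Most of it was Rac2, a small GTPase of blood cells (1547 and 1716 CPM), and Laptm5, a lysosomal protein of blood cells (1021 and 287.8 CPM). Ptprc, which encodes CD45, had only 1.60 and 1.35 CPM, and in CD45+ cell 67 it had 1.07 CPM, against a median of 44.3 CPM in the other CD45+ cells. Coro1a was at 0 in both GFP+ cells.

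The 18 macrophage and monocyte genes summed to 6801 and 7391 CPM in GFP+ cells 25 and 26, above all 74 other GFP+ cells (highest 4662). In each of the 2 cells 10 of the 18 genes were at 0, and 2 genes were above 10 CPM. These 2 were Cd68, a lysosomal glycoprotein of phagocytes and osteoclasts (6370 and 6252 CPM), and Apoe, the lipid carrier (428.2 and 1136 CPM). Lyz2 had 0.615 and 0 CPM, while Adgre1 had 0 and 0.301 CPM. CD45+ cell 67 had the same shape, with 18034 CPM of Cd68, 5930 CPM of Apoe and 4.28 CPM of Lyz2, where the median of other CD45+ cells was 442.4 CPM of Lyz2. Neutrophil genes summed to 2.34 and 0.902 CPM, T and natural killer cell genes to 0.492 and 0.150 CPM, B cell genes to 1.60 and 0.150 CPM and dendritic cell genes to 1.48 and 0.301 CPM in cells 25 and 26. MHC class II genes, which present antigen, summed to 115.9 and 1.503 CPM, with 114.2 CPM of Cd74 in cell 25.

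Matrix RNA common among GFP+ primary cells was present in the same 2 libraries. The 13 fibroblast and matrix genes summed to 10491 and 5243 CPM in cells 25 and 26, against a median of 3314 CPM in the other GFP+ cells, and to 125.2 CPM in CD45+ cell 67. Sparc had 3558 and 990.8 CPM, Col3a1 2805 and 1249 CPM, and both were at most 20.3 CPM in CD45+ cell 67. Spp1, osteopontin, had 27495 and 10140 CPM, against a median of 14598 CPM in the other GFP+ cells and 164.8 CPM in CD45+ cell 67. Epithelial genes summed to 842.8 and 11.1 CPM, against a median of 1706 CPM, with Krt18 at 482.4 and 4.36 CPM and Epcam at 0.123 and 0.601 CPM. Proliferation genes summed to 553.7 and 1770 CPM (median of the others 423.9 CPM) and to 6.42 CPM in CD45+ cell 67, and Mki67 alone had 544.8 and 305.2 CPM. Endothelial genes summed to 0.738 and 0.902 CPM. The share of each library that came from other cells was not tested.

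**Figure D5:**
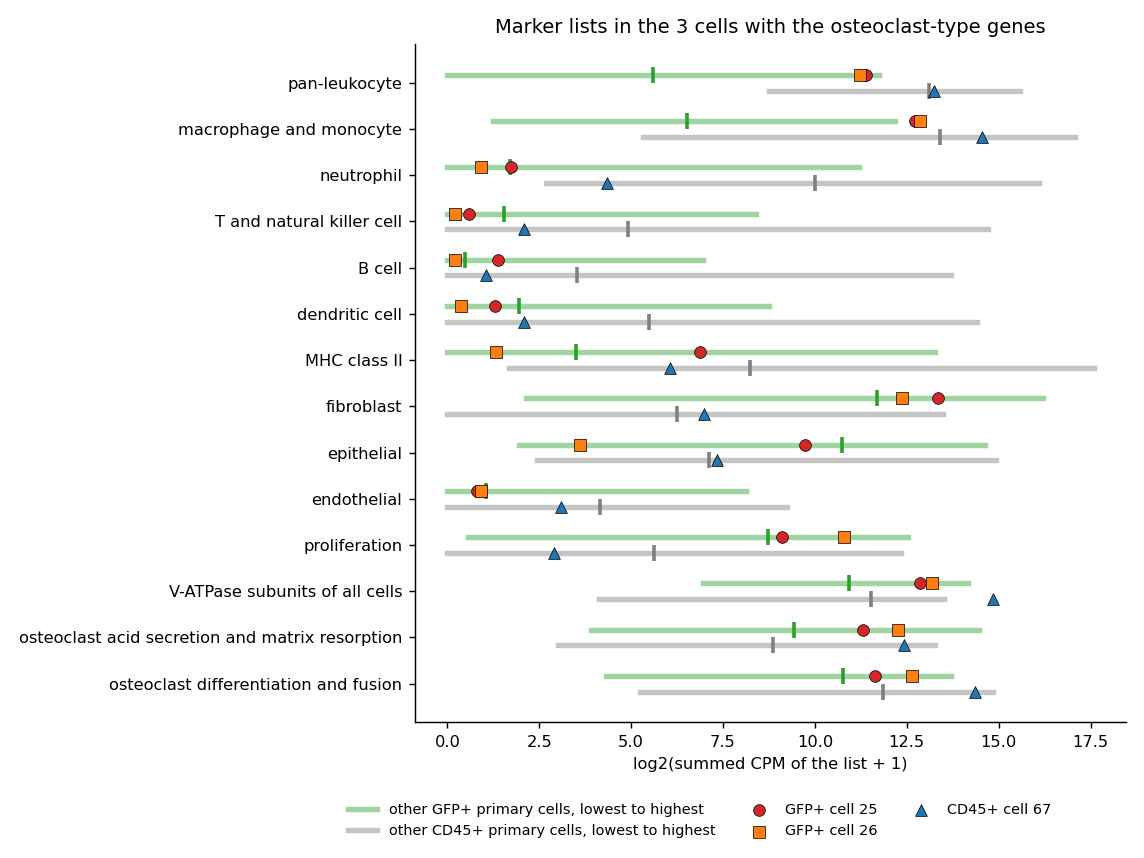
The horizontal axis gives log2 of the summed CPM of each marker list plus 1. Green and grey bars run from the lowest to the highest of the other GFP+ and the other CD45+ primary cells, with a tick at the median. GFP+ cells 25 and 26 lie beyond the green bar for macrophage and monocyte genes (6801 and 7391 CPM), under 3 CPM for neutrophil, T, B and dendritic cell genes, and inside it for fibroblast and matrix genes.

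Genes most like the pair were ranked over the 76 GFP+ primary cells by Pearson r of log2(CPM + 1) with the mean of the pair, among 19591 genes with a count in at least 3 cells. The highest r were those of Mfsd12 (0.888), a transporter of lysosomes and melanosomes, Ocstamp (0.836), Clec12a (0.828), a myeloid lectin receptor, Cdk18 (0.814) and Spi1 (0.804). Csf1r (0.780), Ctsk (0.715) and Dcstamp (0.706) stood at ranks 7, 13 and 15, Mmp9 at rank 28 and Acp5 at rank 128, although the members were chosen for high values in the same cells. Ranked over the 56 CD45+ cells in the same way, Ctsk stood at rank 29, Acp5 at 622 and Mmp9 at 2841 of 19518 genes, and 1 of the 15 highest was shared. Of the 15 genes, 6 had at least 100 CPM in CD45+ cell 67. Of the 15, 0 were among the 15 highest by Spearman's rho, 0 without mouse 3, which holds cells 25 and 26, and 8 without mouse 2.

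A count chosen after the values were seen asked in how many genes GFP+ cells 25 and 26 and CD45+ cell 67 were the 3 highest of all 368 cells, each with at least 10 CPM. There were 6 such genes of 24424, namely Ctsk, Ckb, Acp5, Atp6v0d2, Adck3 and Oscar. Ckb, the brain-type creatine kinase that regenerates ATP, had 9383 and 13109 CPM in GFP+ cells 25 and 26 and 11276 CPM in CD45+ cell 67, against at most 2019 CPM in any other cell. Adck3, a mitochondrial protein of coenzyme Q synthesis, had 854.7, 796.5 and 1583 CPM in the same cells, against at most 227.4 CPM. The 4 members among the 6 were chosen for these values and are named as a description.

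Sorts other than the GFP+ sort were compared over mice, since the genes were not chosen on those contrasts, though their values were known by then. Each comparison used sums per mouse in a quasi-likelihood fit in edgeR over 19703 genes. Between CD45+ and GFP+EpCAM+ cells, 1.18% of all genes were called higher and 0.508% lower at an adjusted p below 0.05, and 0 of the 5 osteoclast-type genes were called in either direction. Mmp9 came nearest, with 1539 ± 1334 CPM in CD45+ cells and 13.6 ± 23.02 CPM in GFP+EpCAM+ cells (SD, n = 3 mice each), a log2 difference of 7.12 ± 2.07 (SE) and an edgeR adjusted p of 0.0643. It was higher in CD45+ cells in 3 of 3 mice. The top cell of each CD45+ sum gave 95.5%, 89.2% and 46.3% of its Mmp9 counts in mice 1, 2 and 3. With the mouse as a replicate block the log2 difference was 8.20 and the adjusted p 0.0272, and over all alternatives the adjusted p ran from 5.23e-04 (DESeq2) to 0.161.

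The log2 differences were 4.92 ± 2.35 for Atp6v0d2, 6.61 ± 2.72 for Oscar, 6.72 ± 2.44 for Ctsk and 2.36 ± 1.30 for Acp5 (SE). Their edgeR adjusted p ran from 0.117 to 0.260, beside a median log2 difference of 0.52 over all genes. Each gene was higher in CD45+ cells in 3 of 3 mice. For Oscar and Ctsk this rested on few counts outside mouse 3. The CD45+ and GFP+EpCAM+ sums held 8 and 2 counts of Oscar in mouse 1, and 2 and 1 in mouse 2. For Ctsk they held 31 and 14 counts in mouse 1, and 15 and 3 in mouse 2. Acp5 was lower in CD45+ cells when cells were weighted alike in limma, at -0.81 (pseudocount 1) and -0.86 (0.1). For Oscar and Ctsk 1 cell set the direction: without CD45+ cell 67 the log2 differences were -1.64 and -2.74. Oscar entered the fit through a filter that counted the GFP+ primary sums, where it was chosen as high: with only CD45+ and GFP+EpCAM+ sums it did not pass that filter, and DESeq2 gave it no adjusted p. Its value is therefore a description. CD45+ cell 67 gave 99.85% of the Oscar counts and 99.91% of the Ctsk counts of the CD45+ sum of mouse 3. Atp6v0d2 also rested on single cells. CD45+ cell 67 gave 98.7% of its counts in mouse 3 and CD45+ cell 16 gave 98.3% in mouse 2, while the sum of mouse 1 held 4.84 CPM. DESeq2 called Atp6v0d2 with an adjusted p of 0.0342, the lowest of its alternatives (up to 0.325).

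Between CD45+ and EpCAM+ cells, 0.619% of all genes were called higher and 0.178% lower, and 1 of the 5 genes was called. Mmp9 had 1539 ± 1334 CPM in CD45+ cells and 0.938 ± 0.835 CPM in EpCAM+ cells (SD, n = 3 mice each), with a log2 difference of 11.15 ± 2.43 (SE) and an edgeR adjusted p of 0.0213. Mmp9 ran from 76.9 to 2690 CPM in CD45+ sums and from 0.129 to 1.80 CPM in EpCAM+ sums. Few cells gave much of these CD45+ sums. CD45+ cell 37 gave 95.5% of the counts in mouse 1, cell 19 89.2% in mouse 2 and cell 69 46.3% in mouse 3. Without mouse 3 the adjusted p of Mmp9 was 0.200, the highest of its alternatives, which went down to 6.16e-08. Atp6v0d2, Acp5 and Ctsk were not called, with log2 differences of 3.24, 3.18 and 9.57 and edgeR adjusted p of 0.0875 to 0.544. They were higher in CD45+ cells in 2, 3 and 2 of 3 mice. Oscar had 7.56 (1 of 3 mice) in this fit, which it entered through the same filter that counted the GFP+ primary sums. Its value here is therefore a description too. Without CD45+ cell 67 Oscar had -0.69 and Ctsk 0.11, without mouse 3 they had -1.55 and -0.38, and Acp5 had -0.02 in limma with a pseudocount of 0.1. Between EpCAM+ and GFP+EpCAM+ cells, 0% of genes were called higher and 0% lower in edgeR, none of the 5 among them, although 1154 and 1553 genes had an unadjusted p below 0.05 and DESeq2 called 376 and 818.

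Pathway genes other than the 5 were read in the same fits. Of 20 tested genes of osteoclast differentiation and fusion, 4 were called higher and 0 lower in CD45+ than in GFP+EpCAM+ cells, with a list median of 1.89 beside 0.52 over all genes. Fcer1g, the adaptor of Oscar, had 1518 ± 578 CPM in CD45+ cells and 1.05 ± 0.721 CPM in GFP+EpCAM+ cells (log2 difference 10.18 ± 1.89, SE, edgeR adjusted p 0.00506, n = 3 mice each). Tyrobp (11.66) and Spi1 (10.55) were called higher as well. Against EpCAM+ cells 3 of 20 were called higher and 0 lower (list median 3.74 beside 0.09), among them Dcstamp at a log2 difference of 9.85. None of 14 genes of acid secretion and none of 15 V-ATPase subunits were called in either direction in these comparisons. Fcer1g, Tyrobp and Spi1 are made by many leukocytes, and 10 of 18 macrophage and 7 of 12 pan-leukocyte genes were called higher in CD45+ than in GFP+EpCAM+ cells, as were 8 of 8 neutrophil, 6 of 11 T and natural killer cell, 3 of 7 MHC class II, 2 of 8 dendritic cell and 0 of 6 B cell genes. Of 13 epithelial genes 4 were called lower, and of 13 fibroblast and matrix genes 2.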

How the data were processed

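Per the submitters' processing notes, STAR, kallisto, Bowtie 1.0 and mouse build mm9 were used, with no role or order stated. The authors' RNA table gives expected counts of genes, 97.35% of them whole numbers. Their deposited DNA table gives counts of reads in 4730 autosomal, 267 X and 3 Y bins. CPM was computed from the RNA table after 92 spike-in rows and 4 rows of repeated symbols were left out. Of 420 single cells, 2 pairs of peritoneal cells of mouse 1 differed in DNA by less than sampling noise (chi-square per degree of freedom 0.735 and 0.854, lowest of the other pairs 1.18, 3588 pairs compared) and were counted as 1 cell each. Their RNA differed more (19.1 and 3.94).

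For each mouse and sort the expected counts of its kept cells were added up, rounded and tested with edgeR 4.0.16 (R 4.3.3): 1 quasi-likelihood fit of the 4 primary sorts, the default gene filter, TMM scaling and Benjamini-Hochberg adjustment at 0.05. The replicate is the mouse. With 3 mice, and counts of amplified reads without molecular identifiers, p-values and intervals cover the spread between these sums and counting error only. Alternatives were DESeq2 1.42.0, no TMM, other cell and gene filters, limma 3.58.1 on log2 CPM averaged over cells with a pseudocount of 1 or 0.1, only the 2 groups, the mouse as a replicate block, and dropping each mouse in turn. Sums of the same mouse come from the same animal and so are paired. Their deviations from group means had a median correlation of 0.06 (0.02 to 0.28), against -0.04 for other mice.

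The 5 genes, the 18 marker lists (209 genes, all matched) and the tests were chosen with earlier results of these data known. Named genes were the 5 members, up to 4 genes of each list with the highest mean CPM in the carrying cells, called genes with the smallest p, and the 15 genes most like the pair. Defining markers near 0 and the genes with cells 25, 26 and 67 highest were added after the values were seen, as were the DNA amplitude, the Y share, the tumour profiles of mouse 3 and the fits without CD45+ cell 67.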

Additional observations from a re-analysis of the deposited data

Results flagged for a closer look

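Bulk libraries (several cells sorted together, 1 library each) entered no comparison, and some had more than 3 counts of an osteoclast-type gene, the limit that a count of 0 allows. The bulk GFP+ primary library of mouse 1 had 66.7 CPM of Atp6v0d2 and 83.99 CPM of Acp5, with 1 count of Oscar and 0 of Ctsk in 2369371. Its marker tag also names EpCam. The bulk GFP+ primary library of mouse 2 had 4.85 CPM of Atp6v0d2, 16.1 CPM of Acp5, 1.51 CPM of Ctsk and 38.8 CPM of Mmp9. In the bulk GFP+ peritoneum library of mouse 1, Acp5 was at 83.2 CPM and Mmp9 at 2.55 CPM. The bulk GFP-negative peritoneum library of mouse 1 had 6.36 CPM of Atp6v0d2, 6.36 CPM of Oscar, 117.1 CPM of Acp5, 7.64 CPM of Ctsk and 5.09 CPM of Mmp9, and it was the only bulk library with more than 3 counts of Oscar. The bulk CD45+ primary library of mouse 1 had 41.3 CPM of Atp6v0d2, 57.8 CPM of Acp5, 33.03 CPM of Ctsk and 41.3 CPM of Mmp9, from 4 to 7 counts each. Oscar had 3 counts in this library of 121118 RNA counts, or 24.8 CPM. The bulk GFP-negative primary library of mouse 1 had 0 of 8520 counts of each gene, which allows up to 352.1 CPM. In bulk samples, fewer cells of a type and less RNA per cell cannot be told apart.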

How the results depend on the processing

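The count of GFP+ primary cells with the pair was 3 at 10 CPM, 5 at 1 CPM and 7 with any count, and 1 to 3 when 1 mouse was left out, the lowest without mouse 3. Against the tumour profile of peritoneal cells, r was 0.888 in GFP+ cell 25 and 0.789 in GFP+ cell 26. Against that of the other GFP+ primary cells of mouse 3 it was 0.878 in cell 25, and -0.18 in CD45+ cell 67. With GFP+EpCAM+ cells of mouse 3 only, r was -0.14 in CD45+ cell 67. Over all bins in place of autosomes r was 0.371 in cell 25, 0.370 in cell 26 and 0.116 in CD45+ cell 67, and the amplitude of cell 26 was 0.607. Leaving out a mouse gave r of -0.14 to 0.000944 for CD45+ cell 67. Genes called higher and lower between CD45+ and GFP+EpCAM+ cells numbered 233 and 100. DESeq2 gave 1531 and 1844, no TMM 391 higher, limma 505 (pseudocount 1) and 706 (0.1) lower, only the 2 groups 45 lower, and leaving out a mouse 10 to 175 higher and 3 to 38 lower. Between CD45+ and EpCAM+ cells they numbered 122 and 35, with 1074 and 1271 in DESeq2, 189 and 76 without TMM, 182 and 430 lower in limma, 42 and 1 with only the 2 groups, and 10 to 136 and 2 to 18 without a mouse. Between EpCAM+ and GFP+EpCAM+ cells DESeq2 gave 376 and 818, and leaving out a mouse 0 to 2 lower. The replicate block changed the call of Mmp9 between CD45+ and GFP+EpCAM+ cells (log2 difference 8.20, adjusted p 0.0272) and no other call of the 5 genes. Mmp9 was also called there in DESeq2, without TMM, in limma, with only the 2 groups and without mouse 1, and Ctsk against EpCAM+ cells without mouse 1 (adjusted p 0.0378) or mouse 2 (0.00339). The median log2 difference of all genes between CD45+ and GFP+EpCAM+ cells was 0.52 with TMM and 1.23 in DESeq2. Oscar rests on 1 to 17 counts in 6 of the 9 carrying cells. Causes were not tested.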
